A study of Mus musculus with 336 samples.

Results

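The genes of antigen presentation were followed in Bmal1-/- (KO) and wild-type (WT) mouse fibroblasts and liver. The set held each gene whose symbol starts with H2-, the mouse name of the major histocompatibility complex (MHC), together with B2m, Tap1, Tap2, Tapbp, Psmb8, Psmb9, Psmb10, Cd74, Ciita and Nlrc5. Of 55 genes that matched, 33 had a mean of at least 1 FPKM (reads per gene corrected for transcript length and library size) in at least 1 of 3 tables, and 20 had it in all 3. There were 22 members in the fibroblast table, 32 in the liver slice table and 29 in the short liver course, of 15065, 14566 and 12547 genes tested there. By class, the 33 genes divide into class I heavy chains, class I accessory genes, class II genes, and H2-Ke6, a steroid dehydrogenase gene that carries the prefix and has no part in presentation.

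MHC class I molecules are made by nearly all cells and show peptides from inside the cell to CD8 T cells. The immunoproteasome subunits Psmb8, Psmb9 and Psmb10 cut proteins to peptides, Tap1 and Tap2 pump the peptides into the endoplasmic reticulum, Tapbp (tapasin) helps load them, and B2m is the light chain that every class I molecule needs. Nlrc5 is the transactivator of class I promoters and Ciita that of class II promoters. Class II molecules show peptides taken up from outside to CD4 T cells; Cd74, the invariant chain, escorts them, H2-DM loads them, and they are made mostly by macrophages, dendritic cells and B cells.

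The series sequenced mRNA from skin fibroblasts (MSF), cultured liver slices and liver of KO and WT mice, to follow gene expression around the clock without BMAL1, the partner of CLOCK in the circadian oscillator. All samples are labelled C57BL/6, the slices come from adult mice, and no age is given for the short liver course. KO and WT cultures alike were given 15 min of 100 nM dexamethasone, a glucocorticoid used to align cellular clocks, and from 48 h later MSF and slices were harvested every 3 h for 3 days (CT00 to CT69), with 1 FPKM value for each genotype and time point. The short course, labelled as liver, held 3 replicates of each genotype at T00, T06, T12 and T24; the same treatment text is attached to its samples, so KO and WT are given as exposed to dexamethasone there too, with no interval from treatment to T00 stated. The labels do not say whether MSF of a genotype came from 1 or several animals, nor whether replicates are separate animals, and in these data p-values measure the spread between these libraries, which may be technical.

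In both long courses the run names in the labels put KO and WT in different sequencing lanes or library pools, so sequencing and genotype cannot be told apart there. In the short course both genotypes shared their runs. The gene-level value of Arntl, the symbol of Bmal1, was 6.84 ± 0.557 FPKM in KO and 10.6 ± 0.754 FPKM in WT MSF (SD, n = 24 each), 4.09 ± 0.728 and 4.5 ± 1.05 FPKM in KO and WT slices (n = 24 each), and 2.31 ± 0.512 and 1.45 ± 0.985 FPKM in KO and WT short-course liver (n = 12 each). It covers the whole gene and so does not check the deletion or the labels. Read totals are unknown. The worth of 1 read was estimated from the commonest ratio of low FPKM values between a library and a reference of the same course. By that estimate it varied 10.1-fold across MSF libraries, 6.06-fold across slices and 6.15-fold across the short course. The commonest ratio held as few as 20.8%, 18.4% and 30.9% of the genes compared there, so the estimate is rough. In slices, 6 libraries correlated least with the rest (KO CT09, CT27, CT39 and CT42, WT CT66 and CT69), and values without them are given where they matter.

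Class I promoters carry a shared upstream module: an interferon-stimulated response element, a site for NF-kappa-B in enhancer A, and a Y box bound by NF-Y beside the elements that RFX and NLRC5 use. RefSeq windows (build GRCm38.p6, 250 bases before to 50 after the start site) were found for 23 of the 33 genes. The response element core was searched as GAANNGAA, the NF-kappa-B site as GGGATTCC and the Y box as CCAAT, on both strands, with no overlap between them. Shown 5′ to 3′ on the gene's strand, with matches in capitals, are the main heavy chain genes that were lower in KO MSF (H2-K1, H2-D1, H2-Q4 and H2-Q7), the liver gene H2-Q10 and H2-T23, a heavy chain with nearly equal levels in both genotypes.
H2-K1, chr17:34000298-34000597, minus strand: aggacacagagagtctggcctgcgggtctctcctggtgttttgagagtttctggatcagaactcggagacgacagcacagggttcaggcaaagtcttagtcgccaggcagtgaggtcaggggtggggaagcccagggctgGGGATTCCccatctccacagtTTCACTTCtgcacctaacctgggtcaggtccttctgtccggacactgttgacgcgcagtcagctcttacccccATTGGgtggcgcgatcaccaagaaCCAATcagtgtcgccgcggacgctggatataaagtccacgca
H2-D1, chr17:35262844-35263143, plus strand: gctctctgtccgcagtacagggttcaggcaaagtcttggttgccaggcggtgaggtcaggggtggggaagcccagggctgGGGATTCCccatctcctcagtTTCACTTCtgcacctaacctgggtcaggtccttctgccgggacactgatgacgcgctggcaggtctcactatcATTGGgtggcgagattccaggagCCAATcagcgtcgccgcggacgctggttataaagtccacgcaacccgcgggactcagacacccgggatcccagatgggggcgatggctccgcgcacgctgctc
H2-Q4, chr17:35379367-35379666, plus strand: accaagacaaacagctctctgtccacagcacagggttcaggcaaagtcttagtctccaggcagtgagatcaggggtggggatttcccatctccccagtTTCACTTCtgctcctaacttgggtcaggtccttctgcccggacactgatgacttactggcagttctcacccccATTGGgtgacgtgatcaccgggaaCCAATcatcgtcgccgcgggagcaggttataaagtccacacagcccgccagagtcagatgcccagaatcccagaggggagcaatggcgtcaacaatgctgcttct
H2-Q7, chr17:35438905-35439204, plus strand: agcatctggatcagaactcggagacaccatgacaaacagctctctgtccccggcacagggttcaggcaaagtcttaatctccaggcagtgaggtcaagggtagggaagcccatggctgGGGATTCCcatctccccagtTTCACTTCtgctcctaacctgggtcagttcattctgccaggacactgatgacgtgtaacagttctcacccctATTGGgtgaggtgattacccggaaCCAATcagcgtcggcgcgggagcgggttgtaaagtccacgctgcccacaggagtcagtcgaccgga
H2-Q10, chr17:35469839-35470138, plus strand: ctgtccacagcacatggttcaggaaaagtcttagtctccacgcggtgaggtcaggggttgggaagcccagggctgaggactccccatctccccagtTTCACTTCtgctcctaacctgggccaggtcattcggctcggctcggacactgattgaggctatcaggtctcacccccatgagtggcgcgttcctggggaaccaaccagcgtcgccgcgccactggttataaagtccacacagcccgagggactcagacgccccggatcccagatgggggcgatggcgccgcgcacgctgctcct
H2-T23, chr17:36032652-36032951, minus strand: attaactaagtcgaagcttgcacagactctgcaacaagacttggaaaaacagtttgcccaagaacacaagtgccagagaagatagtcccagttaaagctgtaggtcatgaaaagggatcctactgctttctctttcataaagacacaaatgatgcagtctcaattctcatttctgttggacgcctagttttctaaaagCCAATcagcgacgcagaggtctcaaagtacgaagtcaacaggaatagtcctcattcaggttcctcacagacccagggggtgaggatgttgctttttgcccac

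GGGATTCC was in the windows of H2-K1, H2-D1, H2-Q6 and H2-Q7, and in 1.06% of all 32851 promoters. It is the form of the site in class I enhancer A, so its presence in class I genes was given beforehand. GAANNGAA was in windows of 11 of the 23 genes and in 20.1% of all promoters, and CCAAT in 20 of the 23 and in 37.4%. Counted by window, GGGATTCC was in 5, GAANNGAA in 12 and CCAAT in 22 of 26. Windows of related heavy chain genes are alike, so these counts are not independent. Of these strings, H2-Q4 had GAANNGAA and CCAAT without GGGATTCC, H2-Q10 had GAANNGAA without the other 2, and H2-T23 had CCAAT alone. GAANNGAA fixes 2 letters between its GAA parts, so more widely spaced forms of the response element were not counted. The windows of H2-T23 and B2m hold GAA parts with wider spacing. The lack of a GAANNGAA match there thus does not show that a response element is absent. CACGTG, the E-box that the CLOCK and BMAL1 pair binds, was in 7.15% of all promoters and among the 23 genes in that of Psmb10. These are letter matches in 300 bases and show no binding.

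In MSF, the classical class I heavy chains were lower in KO by a wide margin. H2-K1, the heavy chain of the K molecule, had 76.8, 86.5 and 99.4 FPKM as lowest, median and highest value in KO, against 456, 545 and 699 FPKM in WT. H2-D1, the heavy chain of the D molecule, had 104, 131 and 152 FPKM in KO, against 438, 543 and 638 FPKM in WT. The groups did not overlap for either gene, and KO was the lower genotype at all 24 time points. The share of all genes without overlap was not counted, so here and below a lack of overlap only describes the values. By adjusted p alone (limma), 43.9% of all genes were lower and 37.3% higher in KO MSF. The KO mean was 15.8% of the WT mean for H2-K1 and 24.1% for H2-D1. On the log2(FPKM + 1) scale, on which all differences below are given, KO minus WT was -2.64 ± 0.032 (SE) for H2-K1 and -2.04 ± 0.032 for H2-D1 (limma, adjusted p = 8.1e-46 and 2.1e-41).

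The Q region heavy chains, which include the Qa-2 antigens, were also lower in KO. H2-Q4 had 3.04, 4.18 and 5.81 FPKM as lowest, median and highest value in KO, against 54.9, 59.8 and 78.9 FPKM in WT, a difference of -3.59 ± 0.040. H2-Q7 was at or near 0 in every KO library, with a highest value of 0.183 FPKM and 7 libraries listed at 0, against 1.91 to 5.71 FPKM in WT. H2-Q5 reached 0.212 FPKM in KO and lay between 1.15 and 6.77 FPKM in WT. No KO library overlapped WT for these 3 genes, again without a share of all genes to set beside it. H2-T10, a heavy chain of the T region, was called as well, at -1.12 ± 0.040, with KO values from 0.547 to 1.42 FPKM and WT values from 2.54 to 4.23 FPKM. H2-Q6, below the mean of 1 FPKM in MSF, averaged 0.0664 FPKM in KO and 1.80 FPKM in WT. At such low levels the differences of H2-Q5, H2-Q7 and H2-T10 are understated by the added 1.

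The remaining heavy chains differed less. H2-T22, whose product is seen by gamma delta T cells, had 26.9, 34.3 and 45.6 FPKM in KO and 52.7, 65.9 and 87.0 FPKM in WT, without overlap, but its difference of -0.90 ± 0.026 stayed under the size limit of 1. H2-M3, which shows formylated bacterial peptides, had 7.77, 9.19 and 10.7 FPKM in KO and 13.1, 14.2 and 16.2 FPKM in WT, at -0.61 ± 0.028. H2-T23, the heavy chain of Qa-1, stood at 75.1, 89.5 and 99.1 FPKM in KO and 70.5, 86.1 and 103 FPKM in WT, with overlap and a difference of 0.06 ± 0.025. H2-T24 and H2-K2 lay at -0.45 ± 0.028 and -0.31 ± 0.060. The 11 heavy chains were thus unequal, from -3.59 for H2-Q4 to 0.06 for H2-T23.

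**Figure D1:**
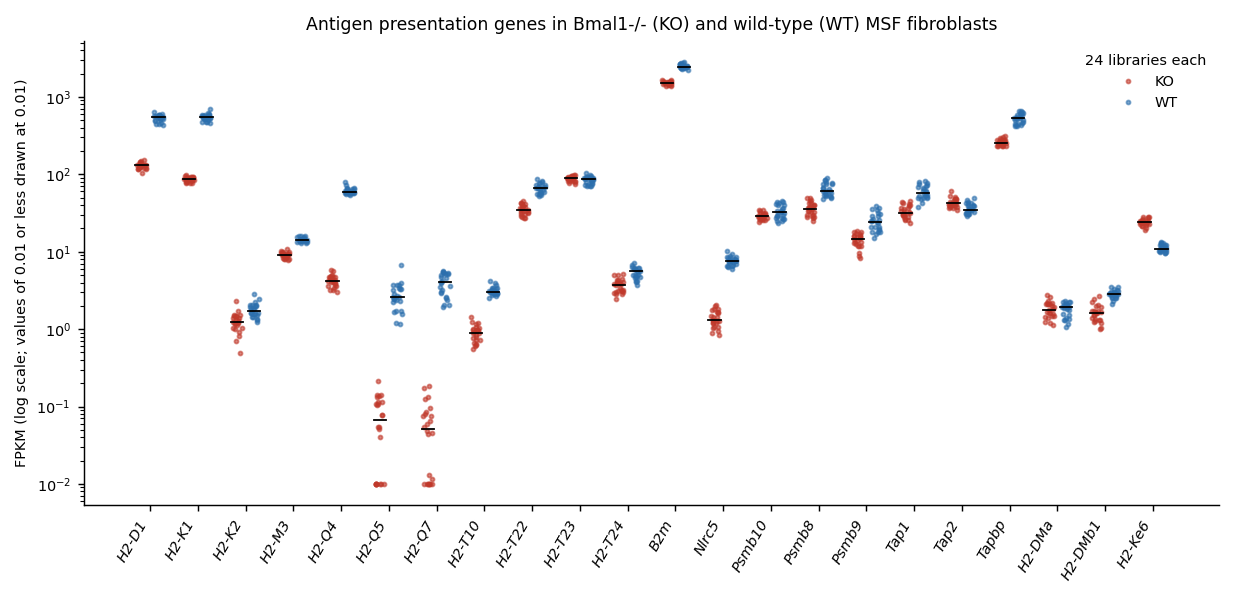
FPKM of each member in the MSF libraries on a log scale, KO left of WT, 24 points each; values at or near 0 are drawn on the lower edge. H2-K1, H2-D1 and H2-Q4 separate by genotype with no overlap, H2-Q5 and H2-Q7 lie near 0 in KO, H2-T23 overlaps, and H2-Ke6 is the member called higher in KO.

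Among the class I accessory genes, Nlrc5 and Tapbp passed the size limit. Nlrc5 had 0.843, 1.29 and 2.06 FPKM in KO and 6.00, 7.59 and 10.1 FPKM in WT, a difference of -1.87 ± 0.052. Tapbp had 229, 254 and 314 FPKM in KO and 422, 532 and 659.6 FPKM in WT, at -1.01 ± 0.025. Neither overlapped, and Tapbp was under the limit without day 2 (-0.97) or after rescaling by median-of-ratios factors (-0.96). B2m, the most abundant member, stood at 1391, 1514 and 1646 FPKM in KO and 2213, 2468 and 2840.3 FPKM in WT, separate but under the limit at -0.71 ± 0.023. The KO mean of B2m was 61.0% of WT. The heavy chains together summed to 320.1, 363 and 408 FPKM in KO, against 1154, 1327 and 1636 FPKM in WT.

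The immunoproteasome and peptide transporter genes overlapped between genotypes. Psmb8 had 24.9, 35.7 and 49.7 FPKM in KO and 48.4, 61.4 and 90.2 FPKM in WT, at -0.82 ± 0.027. Psmb9 had 8.29, 14.7 and 18.4 FPKM in KO and 15.2, 24.5 and 39.4 FPKM in WT, at -0.76 ± 0.052, and Tap1 had 23.5, 32.0 and 45 FPKM in KO and 37.8, 57.1 and 80.9 FPKM in WT, at -0.81 ± 0.033. KO was lower at all 24 time points for all 3 genes. Psmb10, which lies outside the MHC, had 24.4, 28.8 and 34.3 FPKM in KO and 23.2, 32.5 and 44.5 FPKM in WT, at -0.17 ± 0.024, with KO lower at 20 time points. Tap2 went the other way, with 34.5, 42 and 60.2 FPKM in KO and 28.5, 34.9 and 49.4 FPKM in WT, at 0.24 ± 0.049. All 5 had an adjusted p below 0.05 in limma and none reached the size limit.

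Class II genes were nearly silent in MSF of both genotypes. H2-Aa, H2-Ab1, H2-Eb1 and Ciita each averaged below 0.1 FPKM over the table, and Cd74 averaged 0.830 FPKM in KO and 1.08 FPKM in WT. H2-DMa had 1.12, 1.79 and 2.77 FPKM in KO and 1.06, 1.92 and 2.27 FPKM in WT, and H2-DMb1 1.01, 1.62 and 2.64 FPKM in KO and 2.13, 2.87 and 3.47 FPKM in WT. Both overlapped. The ratio of summed class I heavy chains to summed class II chains with Cd74 had a median of 86.1 in KO, with a range of 55.9 to 138, and of 221 in WT, with a range of 178 to 279.

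Markers of other cells were set beside these values. Ptprc, the common leukocyte marker, stayed at or below 0.345 FPKM in KO and 0.0103 FPKM in WT. The 12 macrophage markers summed to 1.40 to 2.84 FPKM in KO and 2.65 to 5.84 FPKM in WT, with C1qa, C1qb, C1qc and Marco at 0 in all 48 libraries. Of the 12, Cd68 and Lyz2 passed the filter, and Lyz2, a lysozyme of myeloid cells, was called lower in KO, at -1.43 ± 0.042, with medians of 0.0668 FPKM in KO and 1.82 FPKM in WT. The 5 endothelial markers summed to 1.13 to 2.09 FPKM in KO and 5.28 to 12 FPKM in WT, and Kdr, a growth factor receptor and the 1 of them tested, was called lower, at -2.47 ± 0.032. Fibroblast markers were high, with 5 of 8 listed, and summed to 3164 to 5064 FPKM in KO and 1823 to 2295 FPKM in WT. Within that list Dcn, a matrix proteoglycan, was higher in KO (at 1.86 ± 0.020) while Thy1, a surface glycoprotein (at -2.49 ± 0.012), and Pdgfra, a growth factor receptor (at -1.44 ± 0.018), were lower, and the epithelial keratin Krt19 was higher in KO, at 3.22 ± 0.044. The part of a different make-up of the 2 cultures in the class I values was not tested.

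In all, 8 of 22 members were called lower in KO MSF and 1, H2-Ke6, higher, where 9.82% and 6.21% of all genes were (limma, difference of at least 1 with an adjusted p below 0.05). The 8 were 6 of 11 heavy chains and 2 of 8 accessory genes, and neither of the 2 class II genes was among them. Of the 6, H2-Q5, H2-Q7 and H2-T10 averaged 0.0695, 0.0572 and 0.902 FPKM in KO and passed the filter only through WT. Genes kept in that way could hardly be called other than lower, so they add no support to the count. H2-Q5 and H2-Q7 dropped out when genes listed at 0 were left out. The median difference was -1.12 over the heavy chains and -0.79 over the accessory genes, against -0.04 over all genes tested. Without the size limit 18 were lower and 3 higher, where 43.9% and 37.3% of all genes were. H2-Ke6 had 19.3, 24.0 and 28.1 FPKM in KO and 9.70, 11 and 13.3 FPKM in WT, without overlap, at 1.04 ± 0.037. Of 106 other tested genes in the stretch of chromosome 17 around the MHC (chr17:33915899-37274484, chosen after the values were seen), 7 were called lower and 5 higher, with a median of -0.22.

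Genes of the interferon pathway were counted as well, since interferons raise class I genes. Of 12 interferon outputs, 10 were called lower in KO MSF and none higher, with a median of -1.74. Their sum ran from 238 to 688 FPKM in KO and from 919 to 1658 FPKM in WT, without overlap. Cxcl10, a chemokine and the lowest of the list at -5.65 ± 0.082, had a median of 1.74 FPKM in KO and 151 FPKM in WT. Oas1a, an antiviral enzyme, was the least moved, at -0.61 ± 0.043. Of 14 signalling genes, the transcription factor Irf7 alone was called, at -2.25 ± 0.042, with medians of 51.1 FPKM in KO and 252 FPKM in WT. Tyk2, a receptor kinase, was the highest of the list at 0.69 ± 0.017. None of 11 genes for peptide supply and folding and none of 7 factors of class II promoters was called. Of 6 tested genes of class II peptide processing, Ctsl (-1.18 ± 0.018) and Lgmn (-1.01 ± 0.015) were called lower. Cd80 (1.51 ± 0.041) was called higher, and the median of the 6 was 0.39. Among all genes 9.82% were called lower and 6.21% higher. The part of interferon signalling in the members' difference was not tested.

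**Figure D2:**
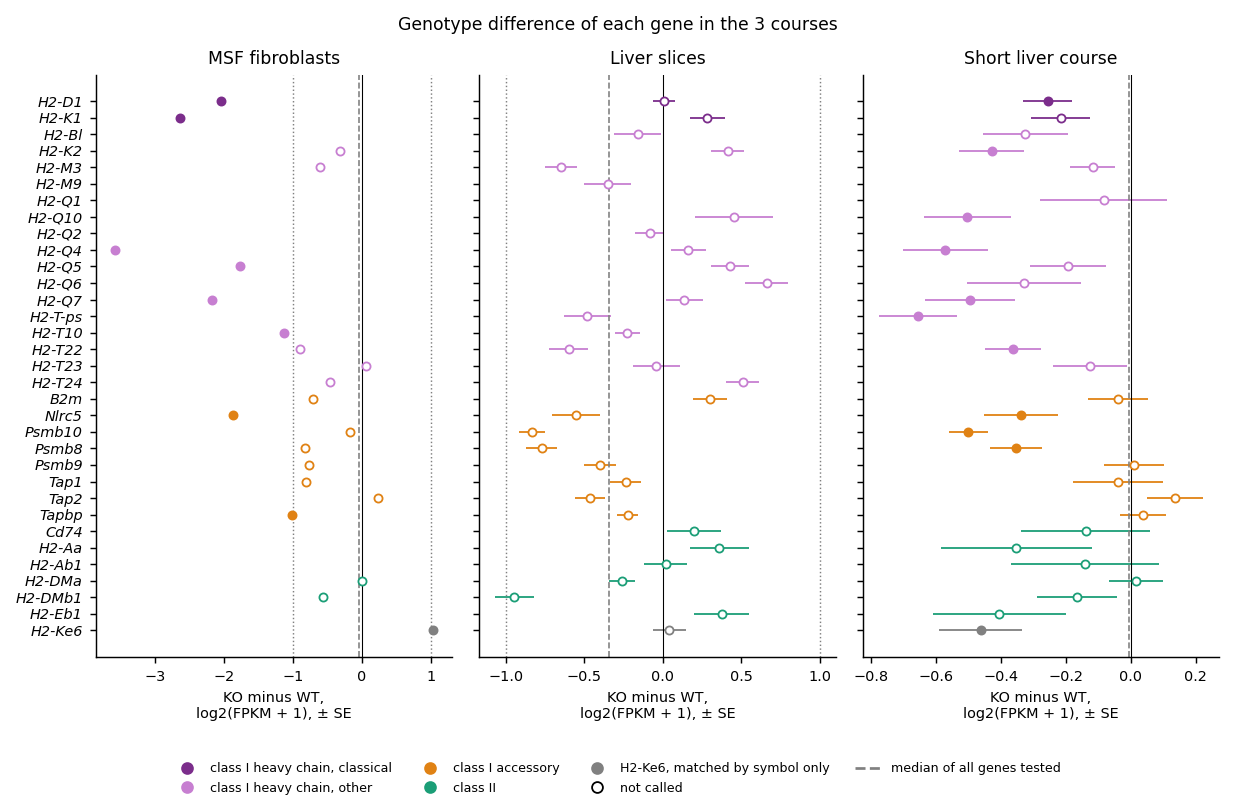
Difference of KO and WT on the log2(FPKM + 1) scale with its SE for each member in MSF, slices and the short course; filled points were called, the dashed line is the median of all genes and dotted lines mark the size limit. MSF differences reach -3.59, all slice points are open, and the called points of the short course lie between -0.65 and -0.26.

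Over the 3 days in MSF, 5 of 8 accessory genes fell in KO and 6 of 8 in WT. A linear change passed in 9 of 22 members in KO, all downward, and in 13 in WT, 9 downward and 4 upward, where 28.5% and 28.7% of all genes changed. Psmb8 averaged 44.2, 35.6 and 28.8 FPKM on days 1 to 3 in KO and 78.8, 63 and 52.3 FPKM in WT, slopes of -0.30 and -0.29 per 24 h. Tap1, Psmb9, Psmb10, Tapbp, H2-T22, H2-T24 and H2-T23 also fell in both. H2-Q7 averaged 0.0761, 0.0491 and 0.0465 FPKM on days 1 to 3 in KO and 2.43, 4.15 and 5.17 FPKM in WT, where it rose by 0.41 per 24 h. H2-Q5, H2-D1 and H2-K1 were the other members that rose in WT. All 12 interferon outputs fell over the 3 days in KO and in WT.

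The slopes differed between KO and WT in 6 of 22 members, a count near the 26.4% of all genes that did. H2-Q7 (-0.43 ± 0.047), H2-Q5 (-0.39 ± 0.074) and H2-Q4 (-0.13 ± 0.048) had the lower slope in KO, in log2 units per 24 h. H2-Q5 and H2-Q7 averaged 0.0695 and 0.0572 FPKM in KO, where the added 1 holds any slope near 0. Their differences thus mostly restate the WT slopes. Tap2 (0.19 ± 0.059), Psmb10 (0.18 ± 0.029) and Tapbp (0.12 ± 0.030) had the lower slope in WT. Psmb10 averaged 31.6, 29.1 and 26.0 FPKM over the 3 days in KO and 41.4, 31.9 and 26.4 FPKM in WT, so its means were close on day 3.

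**Figure D3:**
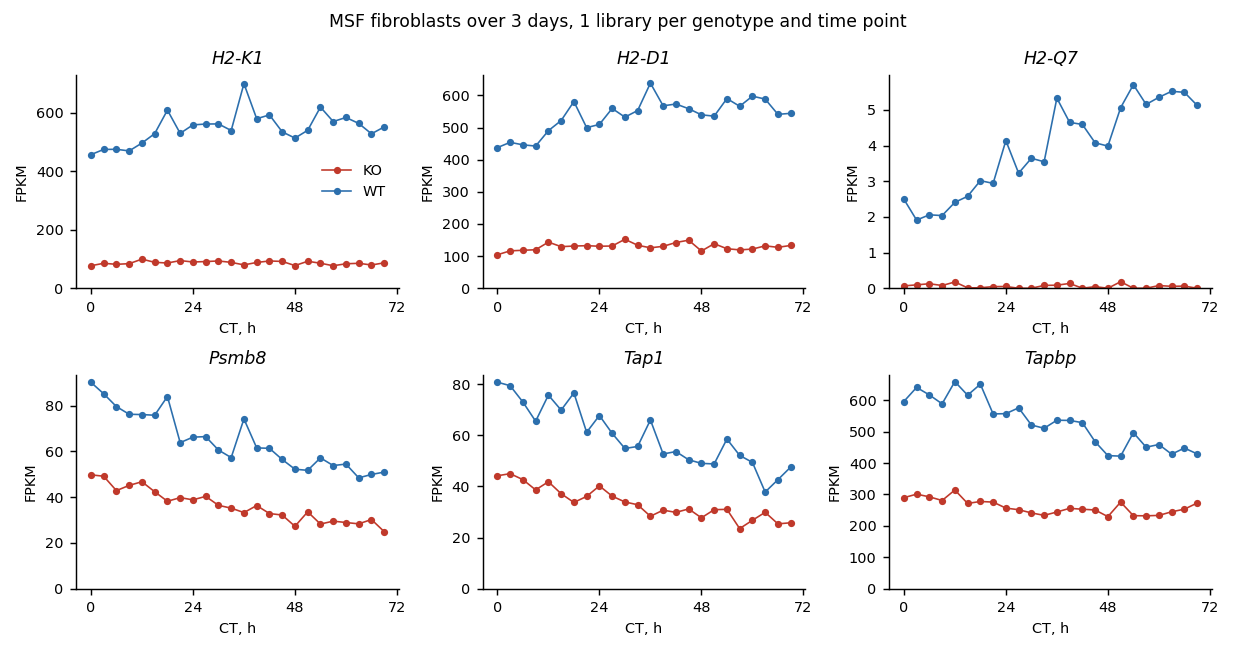
FPKM of 6 members over 3 days in MSF, time in h on the horizontal axis, KO and WT as lines with 1 point for each library. H2-K1 and H2-D1 stay apart throughout, H2-Q7 climbs in WT and stays near 0 in KO, and Psmb8, Tap1 and Tapbp decline.

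A 24 h wave was called for no member in MSF, in KO or in WT, by limma's F test, where 0.00664% and 0.0664% of all genes had one. At an unadjusted p below 0.05 there were 2 members in KO and 4 in WT. The waves of KO and WT differed in 0 members, also at an unadjusted p below 0.05, where 0.00664% of all genes differed. The median amplitude over the members was 0.04 in KO and 0.06 in WT, against 0.05 and 0.04 over all genes.

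In liver slices no member was called for genotype. H2-K1 had 272, 568 and 2444 FPKM as lowest, median and highest value in KO, against 214, 472 and 1115 FPKM in WT. H2-D1 had 210.0, 282 and 653 FPKM in KO and 223, 284 and 458 FPKM in WT, and B2m 998, 1632 and 6934 FPKM in KO and 1049, 1302 and 2224 FPKM in WT. All 3 overlapped, and each had its highest KO value in the CT09 library. Hepatocyte markers also summed highest there, at 78649 FPKM, beside medians of 9436 FPKM in KO and 8743 FPKM in WT. The differences were 0.28 ± 0.113 for H2-K1, 0.01 ± 0.070 for H2-D1 and 0.30 ± 0.109 for B2m.

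In slices all genes were shifted, with a median difference of -0.34 between KO and WT. Of 32 members, 0 were called lower and 0 higher by limma, where 4.05% of all genes were called lower and 1.18% higher; 21 had an unadjusted p below 0.05. Without the size limit 14 were lower and 6 higher, where 66.4% and 6.38% of all genes were. Heavy chains had a median of 0.01, class II genes of 0.11 and accessory genes of -0.43. After rescaling by median-of-ratios factors, which moved the members' median to 0.26 from -0.06, 10 members lay below 0 in place of 17 and H2-Q6 was called higher, at 1.04. The signs of H2-Bl, H2-DMa, H2-Q2, H2-T10, H2-T23, Tap1 and Tapbp changed with it. Without the 6 libraries of lowest correlation 0 members were called too.

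Q region genes were well expressed in liver slices. H2-Q10, which encodes a class I molecule that hepatocytes secrete, had 50.3, 227 and 1931 FPKM in KO and 21.6, 178 and 536 FPKM in WT, at 0.45 ± 0.25, and at 0.08 without the 6 libraries. H2-Q6 had 8.87, 23.8 and 67.9 FPKM in KO and 3.50, 15.6 and 48.0 FPKM in WT, at 0.66 ± 0.137. H2-Q4 and H2-Q7, so low in KO MSF, had medians of 24.3 and 19.9 FPKM in KO slices and 22.3 and 20.5 FPKM in WT slices. H2-T22 had 7.83, 13.4 and 29.8 FPKM in KO and 10.9, 23.4 and 50.1 FPKM in WT, at -0.60 ± 0.123. H2-Q5 lay at 0.43 ± 0.122, H2-M3 at -0.65 ± 0.10, and H2-T23, with medians of 23.3 FPKM in KO and 26.0 FPKM in WT, at -0.04 ± 0.149.

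Of the accessory genes in slices, the immunoproteasome subunits Psmb10 and Psmb8 stood lowest. Psmb10 had 6.05, 13.3 and 25.5 FPKM in KO and 19, 22.6 and 33.9 FPKM in WT, with KO lower at 23 of 24 time points and a difference of -0.83 ± 0.083. Psmb8 had 6.30, 14.9 and 23.4 FPKM in KO and 17.1, 25.4 and 45.6 FPKM in WT, at -0.77 ± 0.099. The ranges overlapped for both. Nlrc5, at -0.55 ± 0.153, had medians of 7.03 FPKM in KO and 9.47 FPKM in WT. Psmb9, Tap2, Tapbp and Tap1 lay between -0.46 and -0.22, near the shift of all genes. Interferon outputs summed to 60.01 to 241 FPKM in KO and 49.5 to 172 FPKM in WT, with 0 of 11 called.

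Class II genes were present in slices of both genotypes. Cd74 had 2.60, 10.1 and 55.3 FPKM in KO and 2.92, 7.68 and 16.6 FPKM in WT, and its difference of 0.20 ± 0.172 became -0.02 without the 6 libraries. H2-Aa and H2-Ab1, the chains of the A molecule, had medians of 6.88 and 9.52 FPKM in KO and 5.20 and 10.1 FPKM in WT. H2-Eb1, the beta chain of the E molecule, had medians of 3.53 FPKM in KO and 2.85 FPKM in WT. These chains overlapped between KO and WT. H2-DMb1 stood apart, with 0.315, 1.37 and 3.17 FPKM in KO and 0.912, 3.28 and 14.4 FPKM in WT, at -0.95 ± 0.122, and passed the size limit without day 2 (-1.04) or with 0.1 added in place of 1 (-1.31). Reads of H2-DMb1 can also come from H2-DMb2, since 22.6% of the 50-base stretches of its transcripts occur there. Of 8 tested genes of class II peptide processing, 3 were called lower in KO slices and 0 higher, where 4.05% and 1.18% of all genes were. Their median was -0.93, against -0.34 over all genes.

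Macrophage and Kupffer cell markers were lower in KO slices. Of 11 tested, all 11 were called lower, where 4.05% of all genes were, with a median of -2.04. Their sum was 86.4, 199 and 552 FPKM as lowest, median and highest value in KO and 235, 1185 and 6884 FPKM in WT, where the CT66 library was highest. The shift was not limited to macrophages: of 8 fibroblast markers 5 were called lower, with a median of -1.415. Of 5 endothelial and 4 biliary markers 0 were called, and of 6 hepatocyte markers 1 was called higher. In bulk tissue, fewer cells of a type and less RNA per cell cannot be told apart. Ptprc had medians of 0.561 FPKM in KO and 1.66 FPKM in WT, and the dendritic cell markers summed to medians of 5.99 FPKM in KO and 6.58 FPKM in WT. The part of these cells in the level of any member was not tested.

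Over 3 days several class I genes fell in slices of both genotypes. A linear decline passed in 11 of 32 members in KO, and in WT 8 fell and 3 rose, where 10.9% and 13.8% of all genes changed. H2-K1 averaged 983, 657 and 398 FPKM on days 1 to 3 in KO and 704, 522 and 349 FPKM in WT, with slopes of -0.61 and -0.51 per 24 h. H2-D1, H2-Q4, H2-Q5, H2-Q6, H2-Q7 and Cd74 fell in both as well. H2-DMb1 averaged 1.36, 1.40 and 1.37 FPKM over the 3 days in KO and 2.73, 3.27 and 6.62 FPKM in WT, and rose in WT along with H2-DMa and H2-M3. All 11 macrophage markers rose in WT slices too, and 1 rose in KO. Of 6 hepatocyte markers, 4 fell in KO and 2 in WT, with median slopes of -0.73 and -0.61 per 24 h, and their part in the decline of class I genes was not tested. The slopes of KO and WT differed in 0 members by limma, with 6 at an unadjusted p below 0.05, where 0.0687% of all genes differed.

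**Figure D4:**
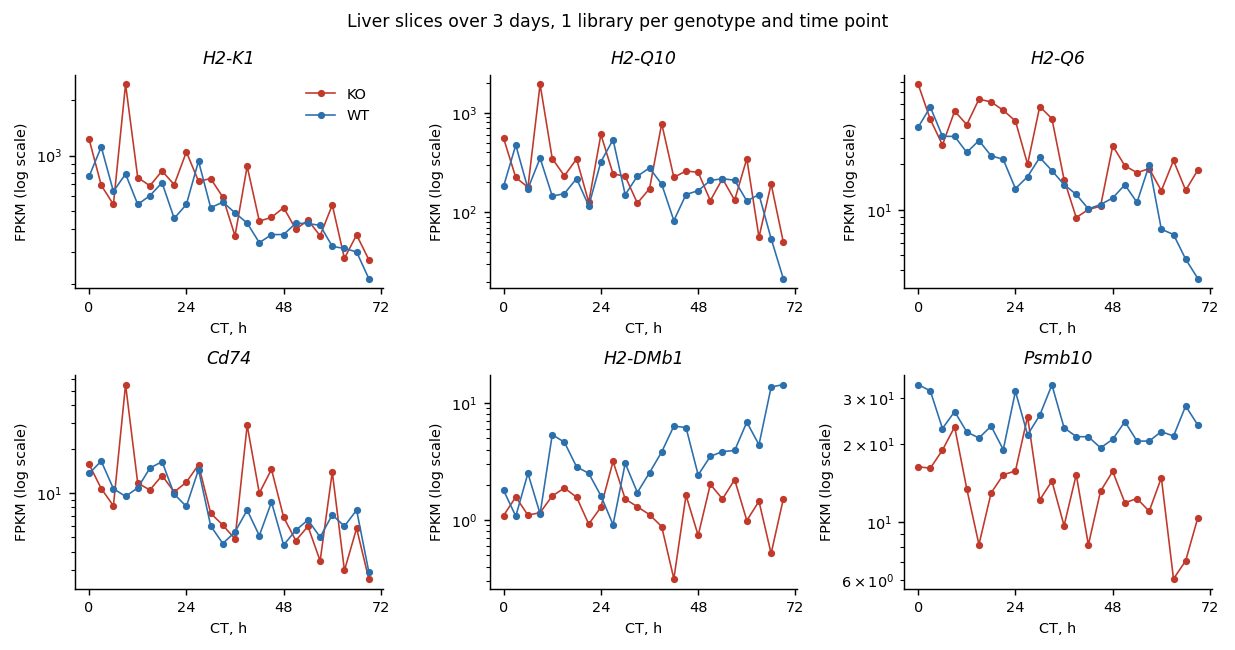
FPKM of 6 members over 3 days in liver slices on log scales, KO and WT as lines with 1 point for each library. H2-K1, H2-Q6 and Cd74 decline in both genotypes, H2-K1, H2-Q10 and Cd74 have their highest KO value at CT09, H2-DMb1 climbs in WT, and Psmb10 is lower in KO at 23 of 24 time points.

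A 24 h wave was called in 6 members in KO slices and 3 in WT slices, where 23.1% and 1.75% of all genes had one. In KO they were Nlrc5, Tap2, H2-Ke6, H2-M3, Tap1 and Psmb10, with amplitudes from 0.31 to 0.65 and peaks from 1.32 to 4.04 h of CT time. Nlrc5 had the widest of these, at 0.65 ± 0.156. In WT the 3 were H2-Bl (0.72 ± 0.154), H2-T-ps, a pseudogene (0.68 ± 0.154), and H2-DMa (0.42 ± 0.087). The waves of KO and WT differed for H2-DMb1 alone (0.69 ± 0.178), 1 of 32 members, where 4.13% of all genes differed. These calls rested on few libraries: without the 6 of lowest correlation there were 2 in KO, 0 in WT and 0 differences.

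In the short liver course, several class I heavy chains were again lower in KO, by smaller steps. H2-D1 had 143, 219 and 313 FPKM as lowest, median and highest value in KO and 168, 246 and 328 FPKM in WT, a difference of -0.26 ± 0.076 averaged over the 4 times (limma, adjusted p = 0.0245). H2-Q4 had 7.80, 25.1 and 45.3 FPKM in KO and 12.3, 38.9 and 68.0 FPKM in WT, at -0.57 ± 0.131. H2-Q10 had 102, 421 and 848 FPKM in KO and 343, 506 and 935 FPKM in WT, at -0.50 ± 0.135. All of these overlapped between genotypes, since the 4 times are pooled in these ranges. H2-Q7 (-0.49 ± 0.138), H2-T22 (-0.36 ± 0.086), H2-K2 (-0.43 ± 0.099) and H2-T-ps (-0.65 ± 0.120) were called too. H2-K1, with medians of 458 FPKM in KO and 561 FPKM in WT, differed by -0.22 ± 0.090 and was not called, but it was called lower without KO replicate 2 (-0.27) or without WT replicate 1 (-0.32).

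Altogether 11 of 29 members were lower in KO and 0 higher by limma, where 11% and 7.75% of all genes were called lower and higher (adjusted p below 0.05), and 13 had an unadjusted p below 0.05. Among the accessory genes they were Psmb10, with medians of 10.6 FPKM in KO and 14.9 FPKM in WT (-0.50 ± 0.061), Psmb8 (-0.35 ± 0.079) and Nlrc5 (-0.34 ± 0.113). B2m, Psmb9, Tap1, Tap2 and Tapbp lay between -0.04 and 0.14. H2-Ke6 was lower as well, at -0.46 ± 0.128, opposite in sign to MSF. The heavy chains had a median of -0.33 and all 14 lay below 0, against a median of -0.01 over all genes. Leaving out WT replicate 2 left 4 calls and leaving out WT replicate 3 left 5, with H2-T-ps, Psmb8 and Psmb10 in both. With 1 mean for each genotype and replicate number, Psmb10 alone was called.

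Class II genes were not called for genotype in the short course. Cd74 had 23.4, 53.6 and 189 FPKM in KO and 28.7, 57.9 and 156 FPKM in WT, at -0.14 ± 0.199. H2-Aa had medians of 25.8 FPKM in KO and 31.1 FPKM in WT, and H2-Ab1 of 15.8 FPKM in KO and 20.5 FPKM in WT. Of 6 class II genes limma called 0, and 0 had an unadjusted p below 0.05; H2-Eb1 had the widest difference, at -0.40 ± 0.205. H2-Eb1 was called lower with the replicate block (limma, adjusted p = 0.0140) and without KO replicate 2 (-0.65, adjusted p = 0.0359). The ratio of heavy chains to class II chains with Cd74 had a median of 11 in KO, with a range of 4.0 to 23.4, and of 13.5 in WT, with a range of 4.09 to 28.4. In slices that ratio had medians of 34.1 in KO and 30.1 in WT. Of 8 tested genes of class II peptide processing, 2 were called lower in the short course and 0 higher, where 11% and 7.75% of all genes were. Macrophage markers summed to 158 to 386 FPKM in KO and 183 to 518 FPKM in WT, with 5 of 12 called lower, and their part in the class II level was not tested.

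Of 29 members, 25 changed over the 4 times in KO and 22 in WT, where 72.2% and 64.4% of all genes changed. In the short course a gene called as changed is said to rise or fall by the sign of its largest change from T00. That change can be at any later time, so a gene said to rise can be back near or below T00 at T24. The count in WT was 13 without WT replicate 1 or without WT replicate 3. Among Q region heavy chains, H2-Q4 averaged 8.33, 38.5, 31.6 and 26.1 FPKM at T00, T06, T12 and T24 in KO and 13.3, 43.2, 44.6 and 53.3 FPKM in WT. H2-Q5 and H2-Q6 were above T00 by up to 2.41 and 2.43 on the log2 scale in KO and up to 2.26 and 2.35 in WT. So these 3 genes rose in both genotypes. H2-Q10 fell over the same hours, with means of 738, 418, 389 and 201 FPKM in KO and 894, 452, 557 and 401 FPKM in WT. Of 6 hepatocyte markers, Apoa1, Apob, Cps1 and Ttr also fell in both genotypes, and their part in the fall of H2-Q10 was not tested. The other 2, Alb and Serpina1b, were called as rising in WT, and 1 of them in KO. Alb and Serpina1b were listed at 0 in 1 and 3 KO samples and in 5 and 2 WT samples. Psmb9 fell too, with means of 20.7, 16.7, 13.8 and 6.22 FPKM in KO and 22.8, 15.5, 10.8 and 7.35 FPKM in WT. Of 8 accessory genes, 6 fell in KO and 5 in WT, and none rose; of 14 heavy chains, 9 rose and 4 fell in KO, and 8 rose and 2 fell in WT.

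Class II chains were highest at the middle times. Cd74 averaged 39.9, 103, 104 and 33.3 FPKM at the 4 times in KO and 44.3, 132, 68.8 and 44.8 FPKM in WT. H2-Eb1 was above T00 at T06 by 1.27 ± 0.410 in KO and 1.54 ± 0.410 in WT. At T12 the 3 KO replicates had 68.1, 189 and 54.5 FPKM of Cd74, so replicate 2 stood far above the others, and dendritic cell markers also summed highest in that sample among KO samples. The 3 dendritic cell markers tested (Ccr7, Clec9a and Zbtb46) rose over time in both genotypes. Ptprc was above T00 at T06, by 0.82 ± 0.212 in KO and 0.96 ± 0.212 in WT, and did not stay there. Its lowest sample was at T24 in both genotypes, at 1.06 FPKM in KO and 0.958 FPKM in WT. The sums of B cell markers and of T and NK cell markers were highest in a T06 sample in each genotype, at 4.61 and 4.71 FPKM in KO and 4.70 and 3.96 FPKM in WT. No gene of either list averaged 1 FPKM in the short course. Macrophage and Kupffer cell markers were mixed: of 12, 6 rose and 4 fell in KO, and 6 rose and 4 fell in WT. The part of these cells in the rise of class II genes was not tested. By the largest change from T00, of 6 class II genes 4 rose and 1 fell in KO, and 4 rose and 2 fell in WT.

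The courses of KO and WT differed for 2 members, where 1.75% of all genes did. H2-T22 had 29.6, 27.1 and 26.7 FPKM at T00 in KO, against 28.2, 28.4 and 25.7 FPKM in WT. At T24 it had 12.9, 8.25 and 9.09 FPKM in KO, against 30.2, 23.4 and 27 FPKM in WT. The genotypes overlapped at T00 and not at T24, a difference of -1.37 ± 0.242 in the change from T00 (limma, adjusted p = 0.00741). H2-T-ps had 1.14, 0.769 and 1.58 FPKM at T24 in KO, against 5.96, 4.11 and 7.36 FPKM in WT, at -1.63 ± 0.340 (limma, adjusted p = 0.0275). Leaving out KO replicate 3, WT replicate 1 or WT replicate 3 left 0 such calls, and leaving out KO replicate 2 or WT replicate 2 left 1.

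**Figure D5:**
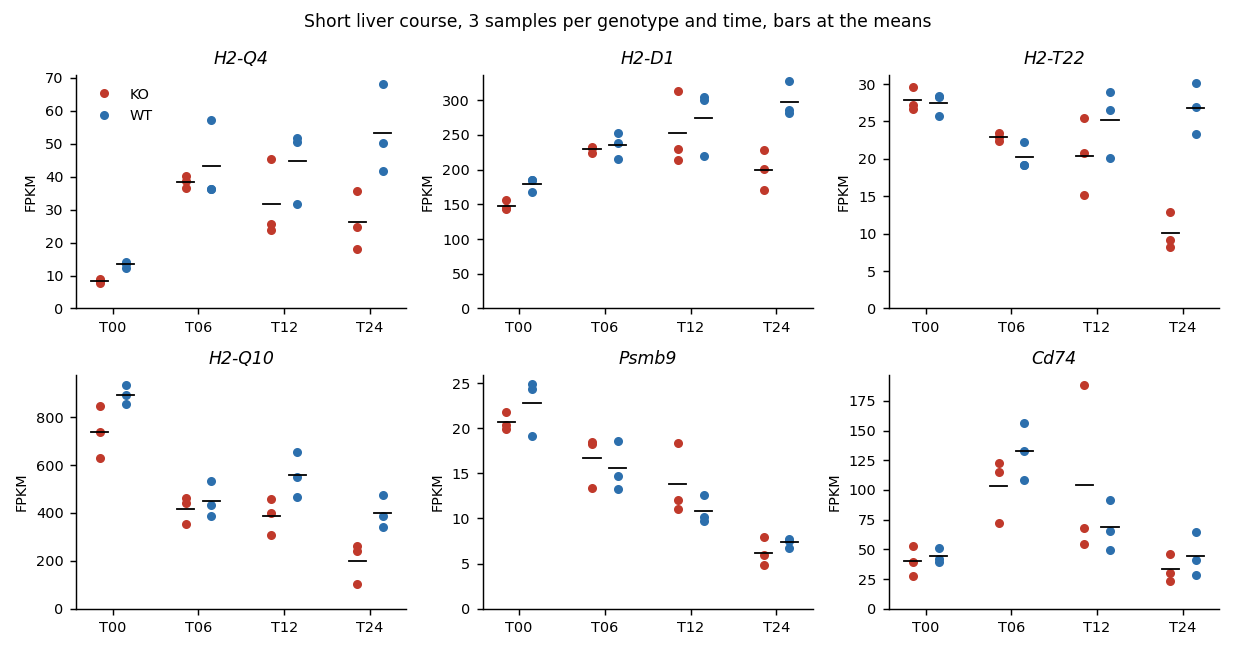
FPKM of 6 members in each sample of the short liver course, KO left of WT at T00, T06, T12 and T24, with bars at the means of 3. H2-Q4 and H2-D1 lie above their T00 means later, H2-Q10 and Psmb9 below, Cd74 is highest at T06 or T12, and H2-T22 separates by genotype at T24.

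Reads of 50 bases do not always tell MHC genes apart. Of the 50-base stretches in the annotated transcripts (GENCODE release M21), 36.5% of H2-Q5, 34.5% of H2-T22, 32.0% of H2-Q6, 26.4% of H2-Q7 and 21.8% of H2-Q4 occur in another gene as well. For H2-D1 and H2-K1 the share was 12.8% and 9.63%, and for B2m, Nlrc5, Psmb9 and Psmb10 it was 0%. How the authors' counting divided shared reads is not given in the sources used here. H2-T22 shares 31.2% with H2-T10, and H2-T-ps shares 18% with H2-T23, so the levels of such pairs are uncertain, as is H2-Ke6, which shares 70.5% with an overlapping model.

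The reference genome is of the C57BL/6 strain, whose b haplotype does not transcribe the Ea gene. H2-Ea-ps was listed at 0 in all 48 MSF and all 48 slice libraries, and above 0 in 1 of 24 short-course samples, in liver that had H2-Eb1 reads in every sample of the short course. In MSF, where class II genes were nearly silent, a value of 0 does not bear on haplotype. MHC genes are polymorphic, and reads from another haplotype can align to them less often. No variant calls were analysed here, so the part of haplotype in the MSF difference was not tested.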

How the data were processed

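The 336 deposited samples are sequencing runs of poly(A)-selected, stranded libraries, which per the labels' protocols and descriptions gave single reads of 50 bases. The submitters' processing notes name the build GRCm38 and the tools TopHat2 2.1.0 and Cuffdiff; which annotation release and library scaling were used is not stated in them. The authors deposited 3 tables of FPKM per gene, with 48 columns for MSF, 48 for slices and 24 for the short course, in which the 3 runs of a long-course time point, or the 2 of a short-course sample, share a column. Genes with a failed or overloaded status in the MSF table (118) were left out, and none was a member. FPKM holds no read totals, so no counting interval is given; precision comes from the spread between libraries. One short-course run has a time in one label field (T06) that differs from its other fields (T00), and T00 was used.

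In each table, genes averaging 1 FPKM or more were tested on log2(FPKM + 1) with limma 3.58.1 (R 4.3.3, mean-variance trend), with Benjamini-Hochberg adjustment over all genes of the table. The long courses were fitted with genotype, a 24 h cosine and sine and a linear slope for each genotype; genotype calls needed a difference of at least 1 as well as an adjusted p below 0.05, since most genes pass by p alone, and other terms by adjusted p. The short course was fitted with genotype, time and their interaction. Each fit was first tested on simulated data in which 200 genes were changed. Members averaging 5 FPKM or more in a genotype were named with values and others with a range, and outside the members the highest or lowest of a list or genes a result turns on; Dcn, Thy1, Krt19 and genes beyond that rule were chosen after their values were seen. The members and lists were chosen with earlier results of these data known. Alternatives were another pseudocount, no filter, median-of-ratios scaling, no size limit, a replicate block, and leaving out days, time points, libraries or replicates.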

Additional observations from a re-analysis of the deposited data

Results flagged for a closer look

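In MSF the slope over 3 days differed between the genotypes, by limma's test of that difference, for 6 of 22 members, where 26.4% of all genes differed, so the count is near the background share. KO minus WT per 24 h was -0.43 for H2-Q7, -0.39 for H2-Q5, -0.13 for H2-Q4, 0.19 for Tap2, 0.18 for Psmb10 and 0.12 for Tapbp on the log2 scale. H2-Q5 and H2-Q7 were near 0 in KO throughout.

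In slices the 24 h wave of H2-DMb1 differed between KO and WT, with an amplitude of 0.69 for the difference of the waves. This was 1 of 32 members, where 4.13% of all genes differed, so the count is not above the background share. The call was lost with no filter, without any 1 of the days, and without the 6 libraries of lowest correlation. In the short course the change from T00 to T24 differed by -1.37 for H2-T22 and by -1.63 for H2-T-ps, KO against WT, where the course differed in 1.75% of all genes. Both share sequence with other heavy chain genes.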

How the results depend on the processing

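In MSF the genotype counts gave 18 lower and 3 higher without the size limit, and stayed at 8 and 1, or within 1.5 times of them, under the other alternatives. In slices, 1 member was lower with a pseudocount of 0.1 or without day 2 (H2-DMb1), 1 was higher under median-of-ratios scaling (H2-Q6), and 14 were lower and 6 higher without the size limit. Declines in KO slices numbered 7 with no filter and 7 with each genotype fitted alone. Slice rhythms depended on the setting. With no filter 0 differed by genotype; without day 1 there were 0 in WT and 0 differences; without day 2 or without day 3 there were 0 in KO, 0 in WT and 0 differences; fitted alone there were 0 in KO and 1 in WT; without the 6 libraries of lowest correlation there were 2 in KO, 0 in WT and 0 differences. Leaving out each time point gave 2 to 6 in KO, 0 to 6 in WT and 0 to 2 differences. In the short course, a pseudocount of 0.1 gave 1 interaction, and 1 mean per genotype and number gave 1 lower member. Leaving out each replicate gave 4 to 15 lower, 22 to 23 changed over time in KO, 13 to 25 in WT and 0 to 2 interactions; time changes in WT fell to 13 without WT replicate 1 or 3. The cause of these changes was not tested.

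Replicate numbers did not pair KO with WT samples: deviations of same-numbered KO and WT samples correlated at a median of -0.009 (-0.113 to 0.089). Within a genotype, same-numbered samples of different times correlated at a median of 0.021 in KO and 0.041 in WT. For samples of different number and time the medians were -0.017 in KO and -0.021 in WT. Whether same-numbered samples share a source was not tested. With the replicate block the short course gave 12 lower, 26 and 23 changed over time in KO and WT, and 3 interactions, and with time points as the replicate block MSF stayed at 8 and 1 and slices at 0 and 0. Of the single-gene differences, none changed sign in a called value. Read depth is unknown and limits members near 1 FPKM most.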
